A study of Mus musculus with 8 samples.

Results

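Chemokine receptors are cell surface proteins that read gradients of small secreted proteins, the chemokines, and steer leukocytes through tissue. The 9 receptor genes described here were *Cx3cr1*, *Ccr1*, *Ccr2*, *Ccr6*, *Ccrl2*, *Cxcr2*, *Cxcr3*, *Cxcr4* and *Cmklr1*. They were chosen by name, with earlier results of these data known, and all 9 were found among the 55573 genes of the count table. Each was measured by RNA-seq in microglia sorted from brain at postnatal day 60, in 4 mutants of the genotype *Smad2/3 fl/fl;Cx3cr1 Cre* and 4 controls, all on a C57BL6/J background and with a library for each mouse. *Smad2* and *Smad3* encode the transcription factors of canonical TGFβ signaling, and Cre recombinase made from the *Cx3cr1* locus removes their floxed alleles in cells with an active *Cx3cr1* gene, macrophages at the brain's borders included. By their labels the controls were wild-type littermates, but the Methods say that comparisons were generally with animals that had Cre and a floxed allele. The comparison asks how the level of each receptor, and of the ligands and signaling genes around it, differed between mutant and control microglia.

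Most of these receptors couple to inhibitory G proteins, which release phosphoinositide 3-kinase gamma and Rac signals that reshape the actin skeleton. *Cx3cr1* binds the neuron-derived chemokine fractalkine (*Cx3cl1*) and is a defining gene of microglia. *Ccr1*, *Ccr2* and *Ccr6* read CC chemokines, and *Cxcr2*, *Cxcr3* and *Cxcr4* read CXC chemokines. *Cmklr1* is the signaling receptor for chemerin (*Rarres2*), while *Ccrl2* is an atypical receptor that binds chemerin without G protein signaling and presents it to other cells. *Ccr2* is a known gene of classical monocytes, *Cxcr2* of neutrophils, *Cxcr3* of activated T and NK cells, and *Ccr6* of B cells and some T and dendritic cells.

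Libraries held 37649124 to 40932680 counts in controls and 35639502 to 41946479 in mutants. Levels are given as CPM, counts scaled to library size after TMM normalization. *Smad3* was lower in all 4 mutants (9.61 to 35.1 CPM against 39.5 to 56.9; edgeR adjusted p = 0.0429), although this call was lost when any mouse other than mutant 3 was left out. *Smad2* had 42.7 to 75.9 CPM against 62.7 to 92.4 (adjusted p = 0.34), and counts over a whole gene can include transcripts whose floxed exons are gone. *Xist*, transcribed from the inactive X chromosome, had 99.5 to 183 CPM in controls and at most 0.562 in mutants, and the Y-linked *Ddx3y* at most 0.224 in controls and 9.74 to 59.8 in mutants, so genotype and sex cannot be told apart here. Mitochondrial genes took 0.819% to 4.604% of the counts in controls and 3.04% to 4.56% in mutants. Of the 9 microglial markers, which include *P2ry12* and *Tmem119*, 7 were lower in mutants and their summed level fell from a range of 24490 to 36610 CPM to one of 4696 to 6971. Of 8 markers of border-associated macrophages, led by *Pf4* and *Ms4a7*, 6 were higher, with a summed level of 53.3 to 99.7 CPM in controls and 1656 to 2547 in mutants. By the Methods, cells came from a Percoll gradient, and live cells positive for the tdTomato reporter were gated on CD45 and CD11b. Neutrophils, monocytes and border macrophages also carry CD45 and CD11b, whereas T and B cells mostly lack CD11b, and with a Cre-dependent reporter the gate would need Cre in the controls too, which the labels do not state. In these bulk samples, fewer cells of a type and less RNA per cell cannot be told apart.

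Of the 9 receptors, 4 differed between the groups in edgeR's quasi-likelihood test at an adjusted p under 0.05, against 12.3% of the 20153 genes tested. *Ccrl2*, *Cxcr3* and *Cxcr4* were higher in mutants, where 4.36% of tested genes were called, and *Cx3cr1* was lower, where 7.97% were. DESeq2 called the same number in each direction. The 4 mutants and the 4 controls did not overlap in CPM for 5 of the 9 (the 4 called genes and *Ccr6*), against 22.1% of tested genes. The median log2 fold change of mutants over controls was 0.46 over the receptors and 0.01 over the genes tested. The receptors and the pathway lists below were chosen with earlier results of these data known, so counts set against all genes are descriptions.

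**Figure D1:**
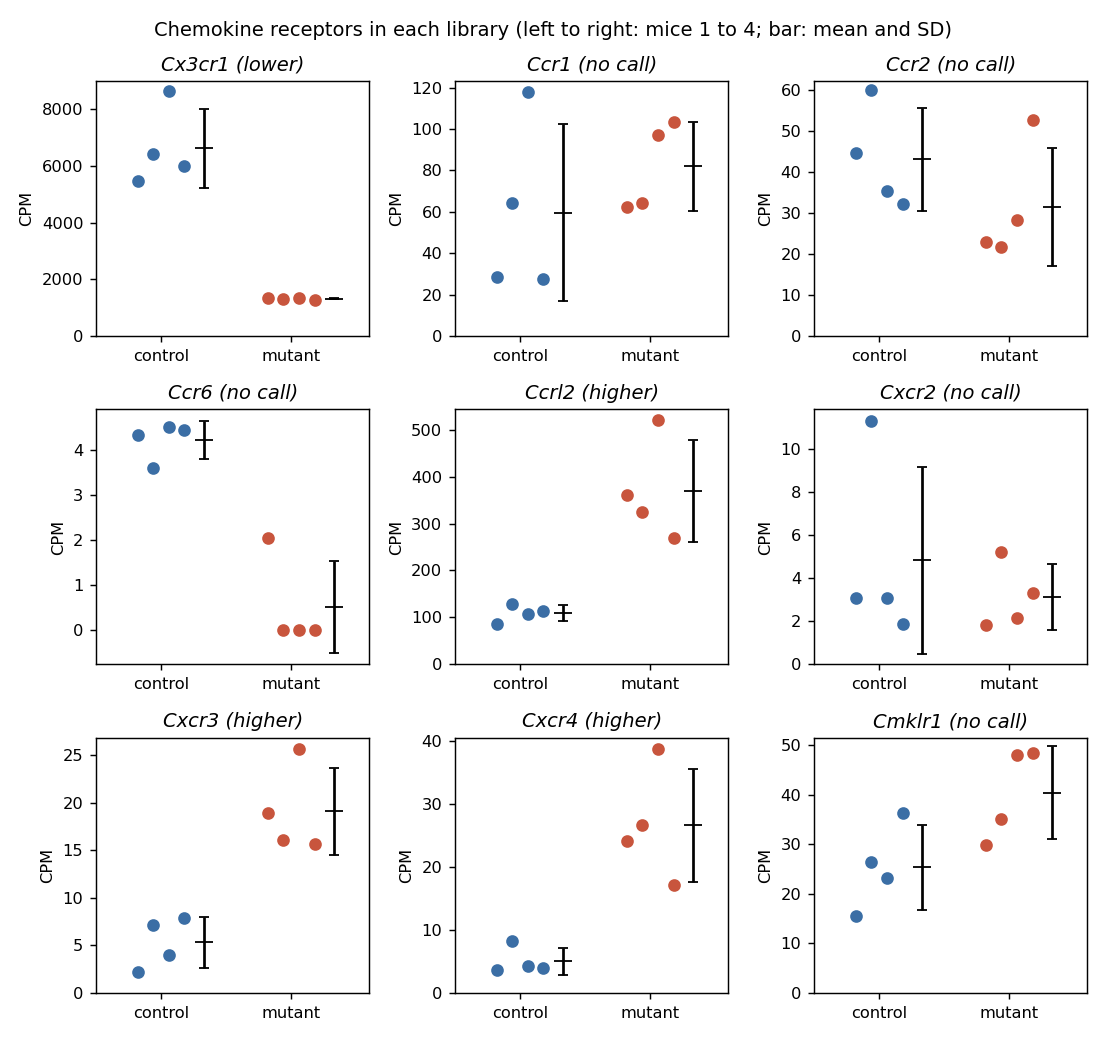
CPM of each receptor in the 4 control libraries (blue) and the 4 mutant libraries (red), each axis linear, with the group mean and SD as a black bar and the edgeR call in the panel title. The groups lie apart for *Cx3cr1*, *Ccrl2*, *Cxcr3*, *Cxcr4* and *Ccr6*, and 3 mutants stand at 0 for *Ccr6*.

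The stretches around the start sites of the 4 called receptors are shown because the deleted genes encode transcription factors and these receptors moved in different directions. Each runs from 250 bases before to 50 bases after the RefSeq start (build GRCm38.p6, strand of the transcript), 5′ to 3′, and capitals mark CAGAC or its reverse complement GTCTG, letters that SMAD proteins are known to bind. *Ccrl2* has 3 such RefSeq windows, of which the second is shown because it holds a match. The first holds none, and the third overlaps the second and holds the same match.
*Cx3cr1*, chr9:120068247-120068546, minus strand: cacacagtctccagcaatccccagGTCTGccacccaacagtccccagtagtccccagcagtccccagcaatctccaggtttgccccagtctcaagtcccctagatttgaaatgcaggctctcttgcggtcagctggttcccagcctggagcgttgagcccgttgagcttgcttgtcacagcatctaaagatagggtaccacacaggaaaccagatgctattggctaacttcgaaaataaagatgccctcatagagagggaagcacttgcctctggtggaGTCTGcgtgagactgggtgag
*Ccrl2*, chr9:111057221-111057520, minus strand: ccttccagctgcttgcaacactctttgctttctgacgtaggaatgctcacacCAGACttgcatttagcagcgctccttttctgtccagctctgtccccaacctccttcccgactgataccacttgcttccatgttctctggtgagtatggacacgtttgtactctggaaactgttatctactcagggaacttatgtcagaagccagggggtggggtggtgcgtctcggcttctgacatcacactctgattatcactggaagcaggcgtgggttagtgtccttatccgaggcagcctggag
*Cxcr3*, chrX:101734098-101734397, minus strand: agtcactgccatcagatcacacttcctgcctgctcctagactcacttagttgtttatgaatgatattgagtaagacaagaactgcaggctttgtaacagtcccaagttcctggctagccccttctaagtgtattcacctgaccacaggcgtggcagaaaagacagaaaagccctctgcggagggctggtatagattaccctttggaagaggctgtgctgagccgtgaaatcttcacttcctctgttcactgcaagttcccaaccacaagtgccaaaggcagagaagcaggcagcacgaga
*Cxcr4*, chr1:128592250-128592549, minus strand: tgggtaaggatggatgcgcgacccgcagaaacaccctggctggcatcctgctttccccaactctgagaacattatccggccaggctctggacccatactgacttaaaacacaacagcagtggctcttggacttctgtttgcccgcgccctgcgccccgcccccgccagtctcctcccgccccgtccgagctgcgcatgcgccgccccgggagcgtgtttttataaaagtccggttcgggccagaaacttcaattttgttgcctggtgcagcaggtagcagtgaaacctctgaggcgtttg
The *Cx3cr1* window held 2 matches, which began 226 bases before the start site and at base 30 of the transcript. The *Ccrl2* window held 1, which began 198 bases before the start site, and the windows of *Cxcr3* and *Cxcr4* held none. Among the receptors not called, the window of *Cmklr1* held 3 matches and each window of *Ccr6* held 1. The windows of *Ccr1*, *Ccr2* and *Cxcr2* held none. Searched on both strands, CAGAC stood in 49.6% of all 32851 mouse windows of this length. GAGGAA, the core letters bound by PU.1, stood in 28.3% of all windows. Among the 4 called receptors it stood in the window of *Cxcr3*, where it began 14 bases before the start site. Among those not called, it stood in windows of *Ccr1*, *Ccr6*, *Cxcr2* and *Cmklr1* and not in that of *Ccr2*. TGANTCA, the letters bound by AP-1, stood in 7.81% of all windows and in none of the windows of the 9 receptors. No match of these motifs overlapped another in the receptor windows, and a match is a run of letters, not a site of binding.

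*Cx3cr1* (ENSMUSG00000052336, chr9:119901616-120069879, minus strand) was the most abundant of the 9 per kb of exon and the one called lower with all 8 libraries (*Ccr6* was also called lower without mutant 1). It had 5456, 6429, 8628 and 6003 CPM in controls 1 to 4 and 1342, 1314, 1349 and 1278 CPM in mutants 1 to 4. The mutants agreed closely with each other and lay far below every control. Its level in mutants was 19.9% of that in controls (1321 ± 32.1 against 6629 ± 1391 CPM, SD, n = 4 each), and the log2 fold change was -2.33 (SE 0.18, edgeR adjusted p = 9.9e-05). The mutants carry Cre in the *Cx3cr1* locus, and how many intact *Cx3cr1* alleles each control carried is not stated by library, so allele number and expression per allele cannot be told apart for this gene. It shared 1.7% of its exon bases with the antisense gene *Gm33858*, which unstranded counts cannot separate.

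Fractalkine itself, *Cx3cl1*, had 26.2, 12.3, 6.24 and 11.9 CPM in controls and 24.8, 24.7, 21.2 and 20.2 CPM in mutants. Control 1 lay above all mutants and the other controls below them, and the gene was not called (log2 fold change 0.68, SE 0.38, adjusted p = 0.279). Without control 1, which together with mutant 1 had the highest summed level of the neuron markers, it was called (log2 fold change 1.16, adjusted p = 0.0365). The summed neuron markers stood at 286 CPM in control 1 and 30.1 to 100 in the other controls, and at 279.5 CPM in mutant 1 and 83.6 to 130 in the other mutants. The part of that RNA in the *Cx3cl1* values was not tested. Neither sheddase that releases fractalkine from membranes was called. *Adam10* had 84.2 to 114 CPM in controls and 47.4 to 96.9 in mutants (adjusted p = 0.225). *Adam17* had 106 to 153 CPM in controls and 37.1 to 105 in mutants, without overlap, and missed the threshold (log2 fold change -1.04, adjusted p = 0.0578), which it passed in DESeq2 (adjusted p = 0.0125) and without mutant 1 (adjusted p = 0.00947). It also passed with the replicate numbers as a block (edgeR adjusted p = 0.0447) and with a filter of 10 counts in all 8 libraries (edgeR adjusted p = 0.0364). Of its exon bases, 4.3% are shared with *Iah1* on the other strand.

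Among the CC chemokine receptors, *Ccr1*, a receptor for *Ccl3*, *Ccl5* and *Ccl9* (chr9:123962124-123968692, minus strand), had 28.3, 64.3, 118 and 27.4 CPM in controls. In mutants it had 62.5, 64.4, 97.1 and 104 CPM. The mutants fell inside the wide range of the controls, where control 3 was the highest of all 8 mice, and the difference did not pass the test (log2 fold change 0.46, SE 0.46, adjusted p = 0.564).

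*Ccr2*, the receptor for *Ccl2* and *Ccl7* (chr9:124101950-124113557, plus strand), had 44.5, 59.9, 35.4 and 32.2 CPM in controls and 22.9, 21.7, 28.3 and 52.5 CPM in mutants. Mutants 1, 2 and 3 lay below every control and mutant 4 lay above 3 of them, so the groups overlapped (log2 fold change -0.46, SE 0.32, adjusted p = 0.397). The 8 monocyte markers summed to 394 to 1048 CPM in controls and 446 to 1053 CPM in mutants. None of them was called by edgeR, 1 (*Chil3*) had an unadjusted p under 0.05 and was called lower by DESeq2, and the part of monocytes in the *Ccr2* values was not tested. *Ccr2* shared 1.91% of its 50-base words with another gene.

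*Ccr6*, the receptor for *Ccl20* (chr17:8236043-8257141, plus strand), had 4.34, 3.59, 4.50 and 4.44 CPM in controls, which is 138 to 168 counts per library. In mutants it had 79 counts (2.05 CPM) in mutant 1 and 0 in mutants 2, 3 and 4. The controls were alike, every mutant was below them, and mutant 1 stood apart from its group. With all 8 libraries the gene was not called (log2 fold change -3.03, SE 1.61, adjusted p = 0.253), and without mutant 1 it was (adjusted p = 0.00115). Against a floor of 3 counts per library, at most 0.0836 CPM, the 3 mutants at 0 were at least 50.5-fold lower than the control mean of 4.22 CPM. That bound leaves out mutant 1, and the floor covers counting error only, not the spread between mice. Of the 7 B cell markers tested, *Ighm* was lower in mutants (log2 fold change -3.61, adjusted p = 8.54e-05), while *Cd79a*, with 6.18 to 11.7 CPM in controls and 4.71 to 13.8 in mutants, was not called. The 8 listed B cell markers summed to 477 to 762 CPM in controls and 81.2 to 123 in mutants, and *Ighm* made up most of the control sums (411 to 701 CPM). In mutant 1 *Cd79a* stood at 6.18 and *Ms4a1* at 1.58 CPM. The part of B cells in the *Ccr6* values was not tested. Its ligand *Ccl20* had no count in any library.

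*Ccrl2* (chr9:111054486-111057519, minus strand) had 86.1, 129, 108 and 114 CPM in controls and 362, 325, 521 and 268 CPM in mutants. Every mutant was above every control, by more than the SD of either group. The mean rose from 109 ± 17.7 to 369 ± 108 CPM (SD, n = 4 each), and the log2 fold change was 1.76 (SE 0.23, edgeR adjusted p = 0.00146), and the call held with each mouse left out in turn (adjusted p 0.00188 to 0.00638).

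*Cmklr1* (chr5:113612354-113650426, minus strand), which signals on chemerin binding, had 15.5, 26.4, 23.2 and 36.2 CPM in controls and 29.8, 35.1, 48.0 and 48.5 CPM in mutants. Only control 4 reached into the range of the mutants, and the gene was not called (log2 fold change 0.67, SE 0.28, adjusted p = 0.148). Per kb of exon, the level of *Ccrl2* was 4.12 to 7.27 times that of *Cmklr1* within control libraries and 7.26 to 15.9 times within mutant libraries, so that mutant 4 met the highest control. The chemerin gene *Rarres2* was near the lower end of detection in both groups, at 0.672 to 2.20 CPM in controls and 0.972 to 2.81 in mutants (adjusted p = 0.488).

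*Cxcr2*, the receptor for *Cxcl1*, *Cxcl2* and *Cxcl3* (chr1:74153989-74161246, plus strand), had 3.08, 11.3, 3.11 and 1.88 CPM in controls and 1.84, 5.21, 2.14 and 3.31 CPM in mutants. Control 2 was far above the other controls, mutant 2 was the highest mutant, and the rest overlapped. The log2 fold change of -0.63 (SE 0.61, adjusted p = 0.552) turned to 0.22 without control 2 (adjusted p = 0.845). *Ly6g*, a defining marker of neutrophils, was also highest in control 2 (12.7 CPM, against 2.02 to 3.39 in the other controls and 1.48 to 4.71 in mutants). The 10 neutrophil markers summed to 3038 CPM in control 2, to 846 to 1769 in the other controls and to 365 to 917 in mutants, and 3 of them were called lower (*Camp*, *Ltf* and *Csf3r*). Of these, *Csf3r* (238 to 394 CPM in controls, 55.2 to 73.05 in mutants) was also among the genes most like *Cx3cr1*, as given below. The part of neutrophils in the *Cxcr2* values was not tested. Of its 50-base words, 6.68% also occur in *Gm26764*.

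The ligands of *Cxcr2* were far higher in mutants. *Cxcl2* had 43.5, 67.9, 58.5 and 39.1 CPM in controls and 1236, 821, 2361 and 1452 CPM in mutants (log2 fold change 4.81, SE 0.38, adjusted p = 9.84e-05). *Cxcl1* had 0.336 to 4.28 CPM in controls and 49.5 to 153 in mutants (log2 fold change 5.55, adjusted p = 0.00135), and *Cxcl3* had 3.36 to 8.10 and 64.4 to 170 (log2 fold change 4.34, adjusted p = 0.000215). All 3 ligands thus rose, while no difference in their receptor was called in either direction.

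*Cxcr3*, the receptor for *Cxcl9* and *Cxcl10* (chrX:101731535-101734269, minus strand), had 2.17, 7.11, 4.03 and 7.91 CPM in controls and 18.9, 16.1, 25.7 and 15.7 CPM in mutants. Every mutant lay above every control. The mean rose from 5.30 ± 2.67 to 19.1 ± 4.61 CPM (SD, n = 4 each), and the log2 fold change was 1.85 (SE 0.40, edgeR adjusted p = 0.0184). The call was lost without control 3 (log2 fold change 1.74, adjusted p = 0.0596). The gene is X-linked, and the groups differ in sex chromosomes. Of 11 markers of T and NK cells, 3 (*Cd3e*, *Cd4* and *Nkg7*) were called higher, and the list summed to 23.0 to 76.4 CPM in controls and 124 to 250 in mutants. *Cd3e*, a defining T cell gene, had 0.867 to 3.09 CPM in controls and 5.36 to 9.42 in mutants. The part of T and NK cells in the *Cxcr3* values was not tested.

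*Cxcl10* had 12.7, 28.6, 13.5 and 9.68 CPM in controls and 76.1, 36.0, 78.2 and 57.2 CPM in mutants (log2 fold change 1.94, SE 0.38, adjusted p = 0.0115), and 5.9% of its exon bases are shared with *Art3* on the other strand. *Cxcl9* had at most 0.699 CPM in controls and 3.22, 3.74, 0.0279 and 2.87 in mutants. Mutant 3 was as low as the controls, and *Cxcl9* was not called (adjusted p = 0.224).

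*Cxcr4*, the receptor for *Cxcl12* (chr1:128588199-128592293, minus strand), had 3.62, 8.25, 4.28 and 3.98 CPM in controls and 24.1, 26.6, 38.7 and 17.1 CPM in mutants. All mutants were above all controls, with control 2 the highest of its group. The mean rose from 5.03 ± 2.16 to 26.6 ± 8.998 CPM (SD, n = 4 each), and the log2 fold change was 2.40 (SE 0.36, edgeR adjusted p = 0.00284). It was the largest rise among the 9 receptors and was called with each mouse left out in turn (adjusted p 0.0022 to 0.0128). *Cxcl12* had 5.30, 1.95, 2.52 and 4.14 CPM in controls and 0.156, 0.151, 0 and 1.88 CPM in mutants. Its groups did not overlap, but it was not called (log2 fold change -2.67, SE 1.21, adjusted p = 0.182) unless mutant 4 was left out (adjusted p = 0.017). *Ackr3*, a scavenging receptor for *Cxcl12*, had 2.41 to 7.77 CPM in controls and 2.18 to 6.18 in mutants (adjusted p = 0.949).

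**Figure D2:**
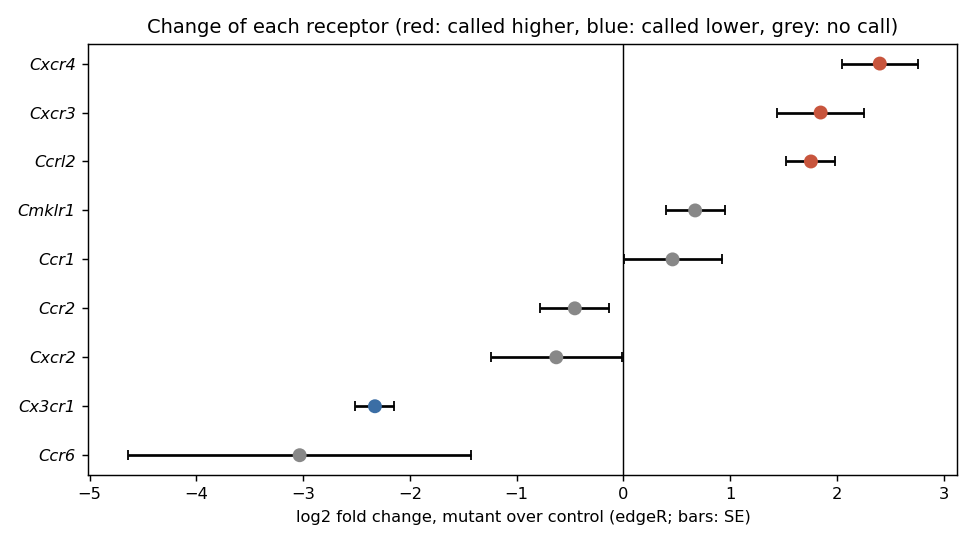
Log2 fold change of mutants over controls for each receptor, with the standard error as a bar (edgeR; red called higher, blue called lower, grey no call). *Cxcr4* (2.40), *Cxcr3* (1.85) and *Ccrl2* (1.76) lie right of 0 and *Cx3cr1* (-2.33) left of it, and *Ccr6* has the widest bar.

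Levels of different receptors were compared per kb of exon, as CPM per kb. In controls the order of means was *Cx3cr1* (1472), *Ccrl2* (42.03), *Ccr1* (21.01), *Cmklr1* (7.43), *Ccr2* (6.36), *Cxcr3* (3.06), *Cxcr4* (2.78), *Ccr6* (1.82) and *Cxcr2* (1.59). Neighbours whose ranges over the 4 libraries did not overlap were *Cx3cr1* and *Ccrl2*, *Ccr2* and *Cxcr3*, and *Cxcr4* and *Ccr6*, and all other neighbours overlapped. In mutants the order was *Cx3cr1* (293), *Ccrl2* (142), *Ccr1* (28.9), *Cxcr4* (14.7), *Cmklr1* (11.8), *Cxcr3* (11.03), *Ccr2* (4.64), *Cxcr2* (1.03) and *Ccr6* (0.221). There, *Cxcr4*, *Cmklr1* and *Cxcr3* overlapped in turn, as did *Cxcr2* and *Ccr6*, and the other neighbours did not. Per kb, *Cxcr4* thus stood above *Ccr2* in all 4 mutants, whereas in controls it lay below *Ccr2*. The exon lengths, joined over all transcripts of a gene, were 6760 bases for *Ccr2* and 1808 for *Cxcr4*. In CPM, without length, mutant 4 had 52.5 for *Ccr2* and 17.1 for *Cxcr4*. *Cxcr4* was the higher of the 2 in mutants 1, 2 and 3.

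*Cx3cr1* made up 93.3% to 95.3% of the summed CPM per kb of the 9 receptors in controls and 50.8% to 61.0% in mutants. The summed level itself was 1272 to 2018 CPM per kb in controls and 465 to 589 in mutants. Without *Cx3cr1*, the other 8 receptors summed to 60.4 to 103 CPM per kb in controls and 181 to 290 in mutants, so the sum without *Cx3cr1* was higher in every mutant while the sum with it was lower. Most of that remaining sum was *Ccrl2* in mutants. These sums are descriptions, with no test.

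**Figure D3:**
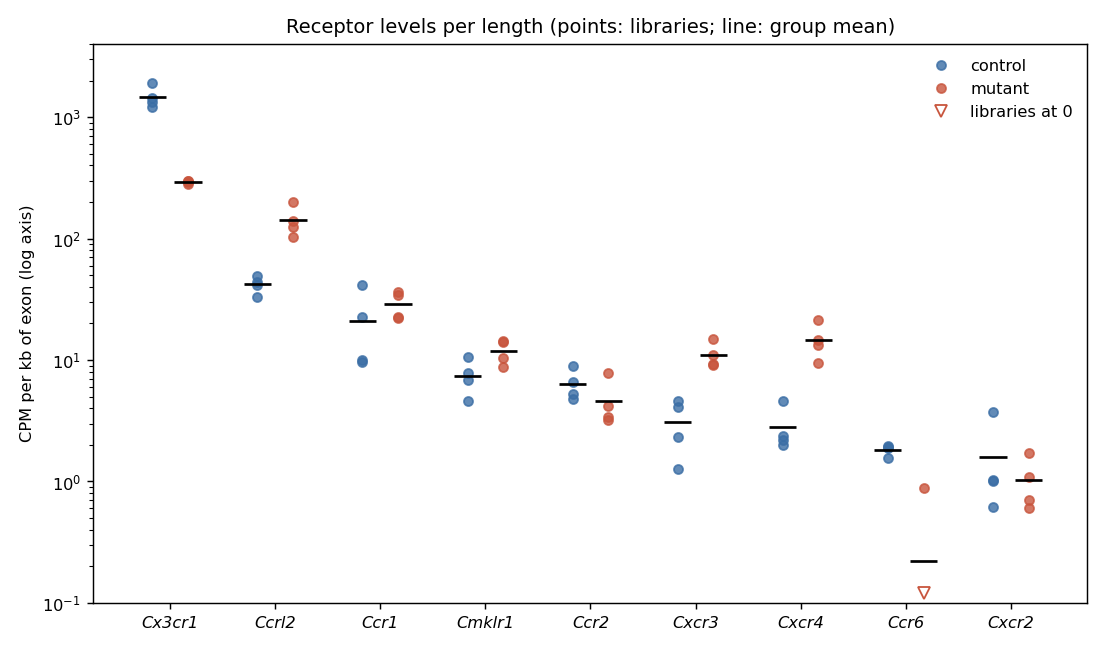
CPM per kb of exon on a log axis for each receptor, ordered by the control mean, with points for libraries (blue controls, red mutants) and a black line for each group mean. The open triangle at the lower edge stands for the 3 mutant libraries with 0 counts of *Ccr6*, and *Cx3cr1* remains the highest receptor in both groups (1472 and 293).

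For each called receptor, the 3 genes with the most similar profile were found among the 10345 genes whose mean log2 CPM was 3 or more, by the root mean square difference in log2 CPM over the 8 libraries after each gene's control mean was subtracted. For *Cx3cr1* they were *Parvg* (0.09, an actin-linking protein of blood cells), *Csf3r* (0.13, the receptor for granulocyte colony-stimulating factor) and *AC105061.2* (0.14). For *Ccrl2* they were *Eva1b* (0.21), *Tbc1d4* (0.22) and *Ehd1* (0.22, an endocytic recycling protein), and for *Cxcr3* they were *Vill* (0.23), *St3gal1* (0.36) and *Eva1b* (0.41). For *Cxcr4* they were *Enpp4* (0.34), *Tgfbi* (0.35) and *Slfn2* (0.37). *Eva1b* was close to both *Ccrl2* and *Cxcr3*. Being near a receptor by this measure is a description, since it follows from the same difference between the groups.

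Of 30 other receptors for chemokines and chemoattractants, 22 were tested. Of these, 3 were higher and 4 lower in mutants, against 4.36% and 7.97% of all tested genes. The median log2 fold change of the 22 was -0.07. The other 8 were below the filter on low counts, and 1 of these, *Cxcr1*, was at 0 in every library. *P2ry12*, the nucleotide receptor that directs microglial processes to injury, had 4189 to 5979 CPM in controls and 139 to 203 in mutants (log2 fold change -4.84, adjusted p = 9.76e-06). *Gpr34*, a lysophosphatidylserine receptor whose gene is X-linked like *Cxcr3*, had 1603 to 2634 CPM in controls and 75.3 to 108 in mutants (log2 fold change -4.39, adjusted p = 3.14e-05). Both log2 fold changes were larger in size than that of *Cx3cr1*, and the difference between them was not tested. Among receptors for other attractants, *Fpr1*, which reads formyl peptides of bacteria, had 3.00, 3.78, 1.68 and 1.83 CPM in controls and 15.95, 24.9, 24.04 and 51.9 CPM in mutants (log2 fold change 3.50, adjusted p = 0.00126). Of the complement receptors, *C5ar2* fell from 15.4 to 40.9 CPM to 3.09 to 9.08 CPM (log2 fold change -2.07, adjusted p = 0.0144). *C5ar1*, chosen after its values were seen, had 93.4 to 233 CPM in controls and 319 to 562 in mutants (log2 fold change 1.54, adjusted p = 0.0127), and *C3ar1*, also chosen after its values were seen, was not called (log2 fold change 0.19, adjusted p = 0.668). *Cxcr6*, the receptor for *Cxcl16*, had 4.16, 7.39, 3.02 and 12.9 CPM in controls and 38.4, 39.6, 23.0 and 11.4 CPM in mutants. Mutant 4 lay below control 4, and its call (log2 fold change 2.03, adjusted p = 0.0386) was lost when any library but control 4 or mutant 4 was left out. The call was also lost with the replicate numbers as a block (edgeR adjusted p = 0.0764). Without both libraries numbered 2, a choice made after seeing the data, 4 of the 22 were called (1 higher, 3 lower). In that fit 998 of the 20153 tested genes were called (371 higher, 627 lower).

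Of 39 chemokine and chemerin genes, 29 were tested. Of these 11 were higher in mutants and 0 lower, against 4.36% and 7.97% of all tested genes. The median log2 fold change of the 29 was 1.43. At an unadjusted p under 0.05 and in DESeq2, 0 were lower, and DESeq2 also called 11 higher. The 10 genes below the filter included 4 with no count in any library. The 11 were *Pf4*, *Cxcl1*, *Cxcl2*, *Cxcl3*, *Cxcl10*, *Cxcl14*, *Cxcl16*, *Ccl2*, *Ccl3*, *Ccl7* and *Ccl8*. Of the 29 tested, 12 did not overlap between the groups (11 with mutants above controls and 1 below), against 22.1% of all tested genes. The chemoattractants of monocytes were among them: *Ccl7* had 12.4, 7.06, 11.8 and 12.9 CPM in controls and 261, 119, 205 and 284 CPM in mutants (log2 fold change 4.30, adjusted p = 9.76e-05). *Ccl2* had 110, 140, 146 and 99.2 CPM in controls and 313, 216, 340 and 590 CPM in mutants (log2 fold change 1.56, adjusted p = 0.0101). *Ccl12*, also a ligand of *Ccr2*, had 139 to 216 CPM in controls and 202 to 256 in mutants and was not called (log2 fold change 0.41, adjusted p = 0.157). *Ccl2* and *Ccl7* thus rose, while *Ccl12* and the receptor *Ccr2* were not called.

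Among ligands of *Ccr1*, *Ccl3* had 344, 451, 357 and 357 CPM in controls and 856, 723, 1252 and 1251 CPM in mutants (log2 fold change 1.43, adjusted p = 0.00306). Of the other CC chemokines named by the rule, *Ccl4*, *Ccl5*, *Ccl6* and *Ccl9* were not called, with adjusted p from 0.162 (*Ccl5*) to 0.986 (*Ccl9*). *Ccl5*, a product of T cells as well, had 2.80 to 23.4 CPM in controls and 15.8 to 62.3 in mutants. *Ccl8* had 0, 0.0521, 0.028 and 0.726 CPM in controls and 4.77 to 5.69 in mutants (adjusted p = 0.0322), a call that was lost when any library but control 1 or control 4 was left out.

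*Pf4*, a platelet chemokine that border-associated macrophages also make and one of their markers here, had 10.2, 8.64, 9.18 and 15.4 CPM in controls and 652, 876, 982 and 1366 CPM in mutants (log2 fold change 6.48, SE 0.34, adjusted p = 2.72e-05). *Cxcl16*, a membrane-bound chemokine, had 79.3, 104, 115 and 104 CPM in controls and 792, 648, 815 and 612 CPM in mutants (log2 fold change 2.83, SE 0.18, adjusted p = 4.83e-05). In both genes the lowest mutant lay far above the highest control. Of the exon bases of *Cxcl16*, 18.3% are shared with *Zmynd15* on the other strand.

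Of 38 genes of chemokine signaling and processing, edgeR called 13 lower in mutants and 0 higher. Over all tested genes these shares were 7.97% and 4.36%. The median log2 fold change of the 38 was -0.48. At an unadjusted p under 0.05, 2 were higher. DESeq2 called 2 higher and 17 lower, and edgeR with library totals in place of TMM called 1 higher and 12 lower. With TMM, edgeR also called 1 higher under a filter of 10 counts in all 8 libraries, with a replicate block, and without control 3. The listed subunits of the gamma-type phosphoinositide 3-kinase were both among the 13. *Pik3r5*, a regulatory subunit, had 110, 134, 213 and 116 CPM in controls and 29.5, 28.6, 26.8 and 17.1 CPM in mutants (log2 fold change -2.49, SE 0.27, adjusted p = 0.000604). Of the genes that activate Rac, *Elmo1* (log2 fold change -1.95, adjusted p = 0.00698), *Vav1* (-1.72, adjusted p = 0.00532) and *Prex1* (-1.36, adjusted p = 0.00668) were lower, and *Dock2*, the partner of *Elmo1*, was too. *Tiam1*, another Rac activator of the list and chosen after its values were seen, was not called (log2 fold change -0.79, adjusted p = 0.388). *Rgs10*, which shortens G protein signals and is abundant in microglia, had 564 to 865 CPM in controls and 152 to 257 in mutants (log2 fold change -1.86, adjusted p = 0.00102). *Plcb2*, a phospholipase that G protein subunits activate, had 32.3 to 52.4 CPM in controls and 10.9 to 19.0 in mutants (log2 fold change -1.56, adjusted p = 0.00366). The inhibitory G protein subunits, beta subunits, arrestins and receptor kinases of the list were not called. Without both libraries numbered 2, chosen after seeing the data, 3 of the 38 were called, all lower. In that fit 371 of the 20153 tested genes were called higher and 627 lower.

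**Figure D4:**
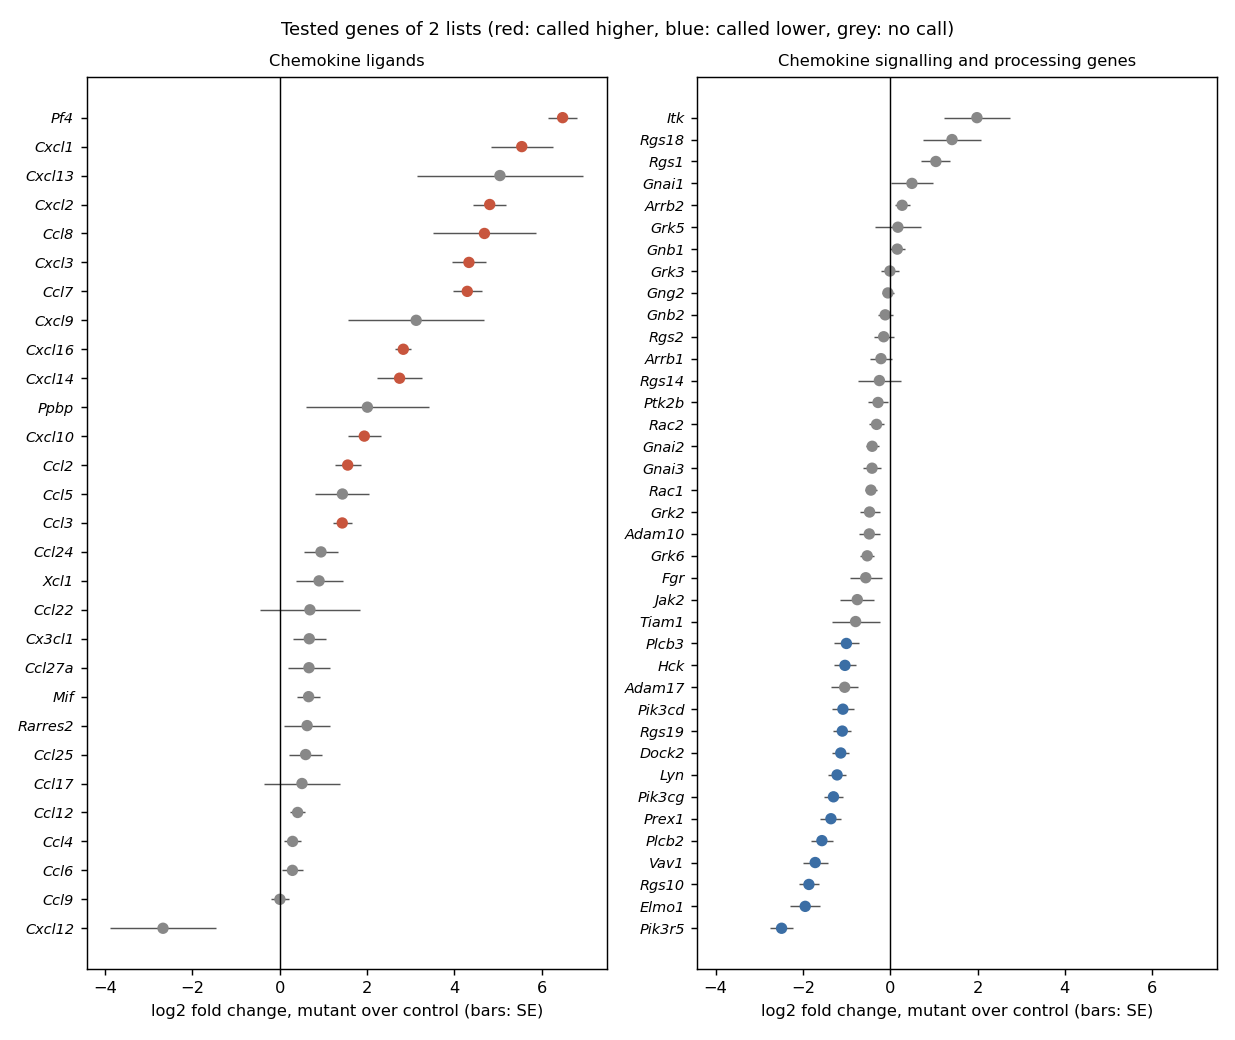
Log2 fold change of mutants over controls for the 29 tested ligand genes (left) and the 38 signaling and processing genes (right), with the standard error as a bar (red called higher, blue called lower, grey no call). Called ligands all lie right of 0, up to *Pf4* (6.48). The signaling genes called in this fit lie left of 0, down to *Pik3r5* (-2.49), and some other edgeR settings call 1 higher.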

How the data were processed

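Sorted microglia of 4 mutant and 4 control mice at postnatal day 60 were profiled by RNA-seq. The deposited values are raw counts per gene, which the authors, by their Methods, obtained with featureCounts from reads mapped to mm10 by Rsubread. Version numbers of that step and the annotation are not given in the sources used here. The Methods describe NEBNext polyA paired-end libraries and the labels Nextera XT single-end ones, both unstranded, and the Methods point to another deposit for these mutants. The authors' table of DESeq2 results (mean, log2 fold change, its error, p-values) was not used. Labels gave groups and replicate numbers, with 1 mouse per library, and no separate record of culture, litter or batch.

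Genes were kept where 4 or more of the 8 libraries had 10 or more counts, and tested with edgeR 4.0.16 (TMM, quasi-likelihood, no block) in R 4.3.3, with Benjamini-Hochberg adjustment and calls at an adjusted p under 0.05. The SE is the log2 fold change divided by the square root of F. The edgeR test was also run on counts simulated from the means and dispersions of these data. The common biological coefficient of variation was 0.542, so spread between mice, not counting, limited precision. Floors of 3 counts cover counting error only, since PCR reads that carry no molecular identifier may come from the same molecule. Of 55573 rows, 55480 matched GENCODE M21 (GRCm38), whose exon unions gave lengths and overlaps. Transcripts of other genes were searched for shared 50-base words on both strands. Promoters are RefSeq's, and all 9 receptors matched. Marker lists covered microglia, border-associated macrophages, monocytes, neutrophils, T and NK cells, B cells, dendritic cells, mast cells and basophils, neurons, astrocytes, oligodendrocytes and endothelial cells. Named besides the receptors were *Smad2*, *Smad3*, *Xist*, *Ddx3y*, known ligands, sheddases and partner receptors, from each pathway list up to 6 called genes with the largest log2 fold change and a mean log2 CPM of 3 or more, the 3 genes most like each called receptor, and leading markers. The rule also names 1 receptor that counts in its list and is not reported singly here. The receptors and lists were chosen with earlier results of these data known. Alternatives were DESeq2 1.42.0, RLE factors, library totals, no filter, 10 counts in all 8 libraries, a replicate block and each mouse left out. Tables and plots used Python 3.11.15, pandas 2.3.3, numpy 2.4.6 and matplotlib 3.10.9.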

Additional observations from a re-analysis of the deposited data

Results flagged for a closer look

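Within groups of 4 mice, the highest or lowest library was set against the others for the receptors and the named pathway genes, by the gap to its nearest neighbour over the range of the group (Dixon's test at the 95% level). Of 86 groups searched, 10 held such a library, and chance gives about 1 in 20. Among the receptors, *Ccr6* had 2.05 CPM in mutant 1 and 0 in the other mutants. *Cxcr2* had 11.3 CPM in control 2 and 1.88 to 3.11 in the other controls. *Cxcr4* had 8.25 CPM in control 2 and 3.62 to 4.28 in the other controls.

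Among other receptors and signaling genes, *Gpr34* had 2634 CPM in control 3 (others 1603 to 1691), *Ackr3* had 7.77 CPM in control 4 (others 2.41 to 3.08), and *Plcb2* had 18.96 CPM in mutant 1 (others 10.9 to 11.8). Among ligands, *Ccl3* had 451 CPM in control 2 (others 344 to 357), and *Ccl8* had 0.726 CPM in control 4 (others at most 0.0521). *Ccl6* had 186 CPM in mutant 4 (others 107 to 113), and *Cxcl12* had 1.88 CPM in mutant 4 (others at most 0.156).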

How the results depend on the processing

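Under DESeq2, RLE factors, library totals, no filter, the filter on all 8 libraries and the replicate block, 4 of the 9 receptors were called, 3 higher and 1 lower, and with 1 mouse left out 3 to 5 were. Without both libraries numbered 2, chosen after seeing the data, 3 receptors, 4 other receptors, 9 ligands, 3 signaling genes and 998 genes in all were called. The calls over all genes numbered 2485, against 4738 with DESeq2 and 1567 (without control 3) to 2499 (without mutant 1) with 1 mouse left out. The fits with fewer mice and the DESeq2 fit, which tested 33547 genes, differ in what enters them, and other causes were not tested. Library totals moved the median log2 fold change of all genes by 0.12, which changed no receptor's call.

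With 1 mouse left out, the log2 fold change of *Cxcr2* ran from -0.99 to 0.22, that of *Ackr3* from -0.17 to 0.64 and that of *Ccl9* from -0.15 to 0.18. *Ackr3* had -0.22 without both libraries numbered 2, and *Ccl9* had -0.00087 with no filter. None of these was called in any of these fits. With no filter *Smad3* missed the threshold (adjusted p = 0.051), and with the replicate block so did *Cxcr6* (adjusted p = 0.0764), while *Adam17* passed it (adjusted p = 0.0447). *Ccr6* was not tested with the filter on all 8 libraries, nor was *Ccl8*.

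The labels number mice 1 to 4 in each group without saying what a number shares. Deviations from the group means correlated between same-numbered mice at 0.17, 0.02, 0.14 and 0.11, and 6 of 8 libraries correlated best with their own number. The numbers were not taken as pairs because number 2 stood at 0.02, and what they share was not tested. As a replicate block they gave 2383 calls in all, 6 among other receptors, 11 among ligands and 14 among signaling genes. *Ccr6* had 0 counts in mutants 2, 3 and 4 and 79 in mutant 1, and its call depended on that mouse.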

Other observations

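Among marker lists not described so far, *Clec10a*, a lectin of some dendritic cells and macrophages, was the 1 of 6 tested dendritic cell markers that was called (3.23 to 4.92 CPM in controls, 10.8 to 20.4 in mutants; log2 fold change 1.94, adjusted p = 0.00283). The dendritic cell list summed to 20.03 to 48.7 CPM in controls and 37.9 to 61.8 in mutants. Of 5 astrocyte markers, the glutamate transporter *Slc1a3* was lower (1084 to 1758 CPM in controls, 25.8 to 170 in mutants; log2 fold change -4.10, adjusted p = 0.00163), and *Gfap*, *Aqp4*, *Aldh1l1* and *Gja1* were not called. The 6 neuron markers, led by *Snap25*, and the 5 oligodendrocyte markers, led by *Mbp*, had 0 calls in edgeR, 0 genes at an unadjusted p under 0.05 and 0 calls in DESeq2. Oligodendrocyte markers summed to 646 to 3969 CPM in controls and 1030 to 3324 in mutants, highest in control 1 and mutant 1. Of the 3 tested mast cell and basophil markers and the 3 tested endothelial markers, edgeR called 0, and 1 of each was lower at an unadjusted p under 0.05 and in DESeq2. They summed to at most 20.9 CPM (mast cells and basophils) and 15.1 CPM (endothelial cells) in any library.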
